A study of Homo sapiens with 15 samples.

Results

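The genes of microRNA precursors and of their host transcripts were followed across endothelial cells exposed to T cell exosomes and across the RNA of the exosomes themselves. Members were taken by gene symbol alone: those beginning with MIRLET7, or with MIR and a digit, of which those ending in HG are long host transcripts and were kept apart. The rule gave 189 genes, 173 precursors and 16 HG hosts, of 18417 genes read by probesets with a single symbol. Each of the 189 was read by 1 such probeset, and all 189 entered every fit, since no filter on low values was applied. A further 34 probesets that hold a MIR symbol carry several symbols and were left out, so that MIR155, MIR342, MIR424 and the precursors of the MIR17 to MIR92A1 cluster were not read singly.

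MicroRNAs are made in steps: a long primary transcript is cut in the nucleus by DROSHA and DGCR8 to a hairpin, which XPO5 exports and DICER1 trims to the mature strand that guides an Argonaute protein to its targets. Targets are recognised mainly through the seed, bases 2 to 8 of the mature strand. Many precursors lie inside a host gene or next to another precursor in 1 primary transcript. The arrays used here read whole transcripts, so a value for a precursor gene is the brightness of probes against its hairpin and primary transcript, not an amount of the mature microRNA, and brightness was not compared between genes as an amount.

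Human umbilical vein endothelial cells (HUVEC, spelled HuVEC in the labels and called an endothelial cell line there) formed 3 groups: untreated, exposed for 6 h to exosomes of Jurkat cells (JK-treated), and exposed for 6 h to exosomes of JinB8 cells (JINB8-treated). Jurkat is a leukaemic T cell line with CD47, a surface receptor of thrombospondin-1 and ligand of SIRPA; JinB8 is its CD47-deficient mutant, and a single mutant line was used. The other 2 groups were RNA from the JK and JINB8 exosomes, which had been precipitated from concentrated conditioned medium of cells grown in human AB serum with the ExoQuick kit, so co-precipitated material is not separated from vesicles. Each group had 3 arrays, 15 in all, hybridised from 300 ng of total RNA including small RNAs. The labels do not say that the 3 replicates were separate cultures or preparations, so p-values measure the spread between these arrays, which may be technical, and their number limits the precision. The comparisons ask which precursors differ after exposure to T cell exosomes and whether the presence of CD47 on the exosome-producing cell matters.

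The mature strands below are shown because their precursors carry the differences described here, or because they share a seed with one that does not follow. They are RefSeq sequences (GRCh38.p14), 5′ to 3′, with the seed in capitals. The first pair comes from 2 hairpins less than 1 kb apart on the X chromosome, MIR221 at chrX:45746157-45746266 and MIR222 at chrX:45747015-45747124, both on the minus strand inside MIR222HG.
miR-221-3p: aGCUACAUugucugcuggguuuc
miR-222-3p: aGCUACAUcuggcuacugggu
The next pair shares the let-7 seed, the first from MIRLET7A2 inside MIR100HG (chr11:122146522-122146593, minus strand) among other loci and the second from MIRLET7G.
let-7a-5p: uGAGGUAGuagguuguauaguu
let-7g-5p: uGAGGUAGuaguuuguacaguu
miR-31-5p comes from MIR31 inside MIR31HG (chr9:21512115-21512185, minus strand).
miR-31-5p: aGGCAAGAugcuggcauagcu
miR-32-5p, from MIR32 inside TMEM245 (chr9:109046229-109046298, minus strand), has the seed of miR-25-3p and of miR-92a-3p.
miR-32-5p: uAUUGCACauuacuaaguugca
miR-25-3p: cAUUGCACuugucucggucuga
miR-92a-3p: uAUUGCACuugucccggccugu
miR-15a-5p and miR-16-5p come from neighbouring hairpins inside DLEU2, MIR15A at chr13:50049119-50049201 on the minus strand.
miR-15a-5p: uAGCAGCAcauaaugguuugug
miR-16-5p: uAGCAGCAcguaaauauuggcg
miR-30c-5p is the product of MIR30C2 (chr6:71376960-71377031, minus strand) and of MIR30C1.
miR-30c-5p: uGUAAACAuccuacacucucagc
miR-21-5p, from MIR21 inside VMP1 (chr17:59841266-59841337, plus strand), and miR-181b-5p, from MIR181B1 inside MIR181A1HG (chr1:198858873-198858982, minus strand) and from MIR181B2, belong to precursors that were bright in HUVEC.
miR-21-5p: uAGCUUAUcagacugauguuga
miR-181b-5p: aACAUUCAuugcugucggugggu
The last 2 pairs share a seed while only the first precursor of each pair was brighter in exosome RNA.
miR-192-5p: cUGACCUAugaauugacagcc
miR-215-5p: aUGACCUAugaauugacagac
miR-206: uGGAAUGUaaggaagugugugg
miR-1-3p: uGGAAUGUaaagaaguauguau

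Of the 173 precursors, 155 were matched to a RefSeq hairpin and 164 to a mature strand. The 155 hairpins lie on 22 chromosomes; 108 lie inside another gene on the same strand, a protein-coding one for 55, and a further 11 inside a gene whose strand the tables used do not list. Only gene spans were used, so exon and intron were not told apart.

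The untreated arrays stood on another level than the rest. The median of all probesets was 6.97 ± 0.06 (SD, n = 3) log2 units in untreated HUVEC, against 5.14 ± 0.03 (SD, n = 3) in JK-treated and 5.11 ± 0.02 (SD, n = 3) in JINB8-treated HUVEC, and close to the latter in both exosome groups. Comparisons with untreated cells were therefore made after quantile normalization of the 9 HUVEC arrays, and the deposited values are given beside them; the other comparisons use the deposited values. The median difference over all genes moved from 0.02 to −1.68 in the JK comparison and from 0.02 to −1.71 in the JINB8 comparison when the deposited values were used, and to 0.10 and 0.13 after centring each array on its median. Replicates within a group correlated over genes at 0.987 to 0.997. Of 12 endothelial marker genes 11 lay above the upper quartile of brightness in each HUVEC group and 3 in each exosome group; of 12 T cell markers 0 lay above it in HUVEC and 7 in exosome RNA. T cell markers changed in both directions after exposure, 2 higher and 3 lower in JK-treated and 1 higher and 3 lower in JINB8-treated cells; their part in the results below was not tested.

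In HUVEC the precursors were dim as a set, with a few bright exceptions. The median member stood at 5.52 log2 units in untreated cells on the deposited scale, against 7.42 for the median gene, and at 3.99 and 3.83 in JK- and JINB8-treated cells against 5.64 and 5.58. MIR21, a precursor abundant in many proliferating cells, had the highest mean rank of brightness, 1737 of 18417 genes. MIR326 followed at rank 1782, MIR181B1 at 2693, MIR139 at 4223, MIR339 at 4832 and MIR210, the hypoxia-induced precursor, at 5498. MIR126, the precursor from the endothelial gene EGFL7, was dim here: its group means were 4.71, 3.33 and 3.35 log2 units in untreated, JK-treated and JINB8-treated cells. In exosome RNA its means were 2.80 for JK and 2.76 for JINB8.

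As a yardstick chosen after the data were seen, 341 olfactory receptor genes, which few cells express, gave the brightness below which 95% of them fell. Their median was 5.23, 3.32 and 3.44 log2 units in untreated, JK-treated and JINB8-treated HUVEC, well under the median gene. In exosome RNA it was 5.51 for JK and 5.45 for JINB8, above the median gene at 5.20 in both, so there the yardstick does not set detected genes apart. On that scale 52 of 189 members (27.5%) were brighter in untreated HUVEC, 65 (34.4%) in JK-treated and 60 (31.7%) in JINB8-treated cells, where 63.8%, 67.2% and 65.8% of all genes were. In each exosome group 14 members (7.41%) passed, beside 4.15% of all genes in JK and 5.18% in JINB8 exosome RNA. The same 14 genes passed in both: MIR139, MIR147A, MIR150, MIR153-2, MIR181C, MIR185, MIR187, MIR197, MIR210, MIR211, MIR326, MIR339, MIR570HG and MIRLET7D. In HUVEC a value under the yardstick is not well separated from those of the olfactory receptor probes.

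**Figure D1:**
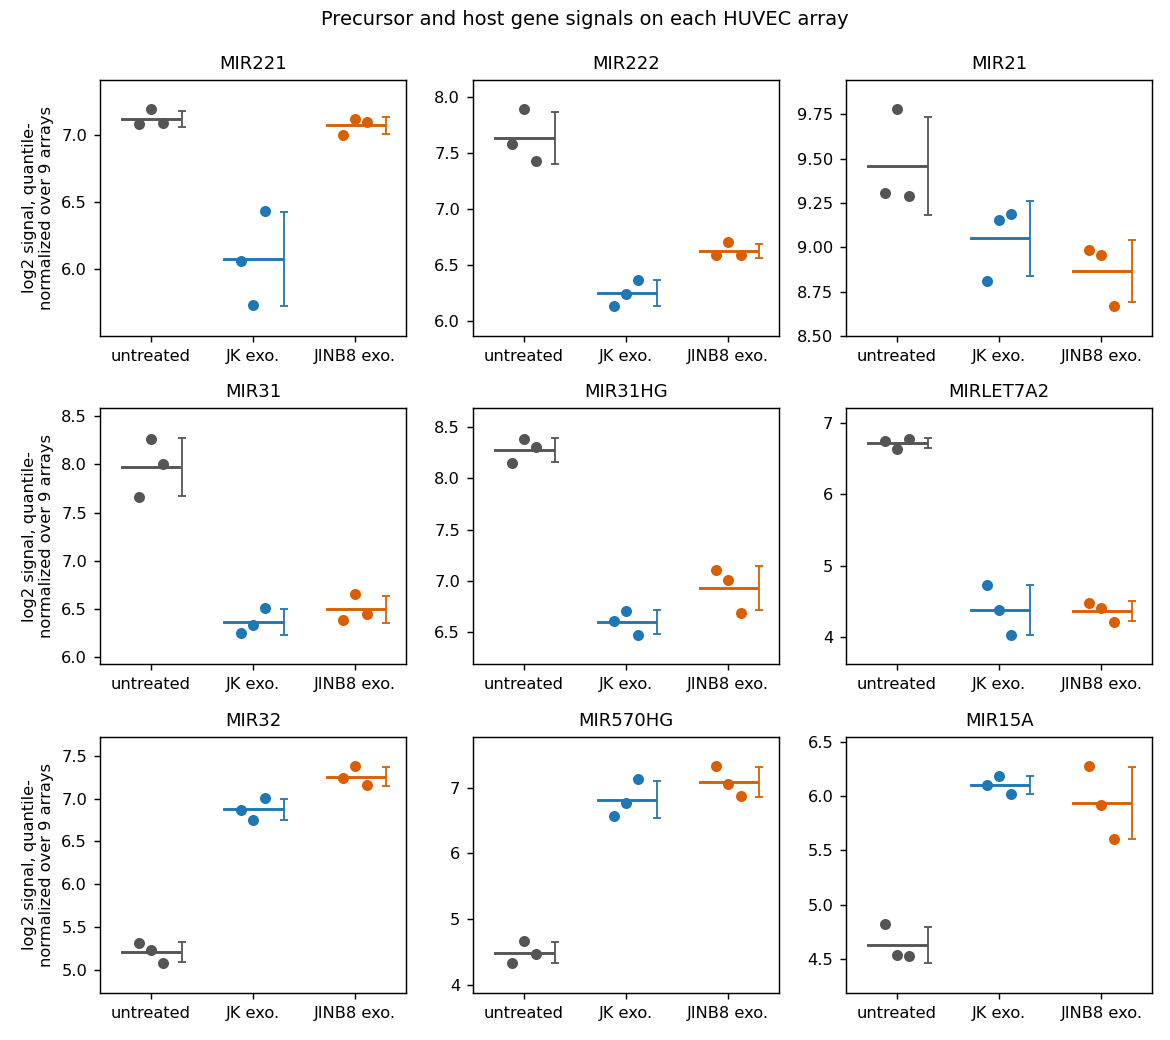
Log2 signals of 9 members, 1 panel each, after quantile normalization over the 9 HUVEC arrays; points are arrays, horizontal lines the means of 3 arrays and error bars the SD, and each panel has its own y axis that does not start at 0. MIR221 is low in the JK-treated arrays (5.73 to 6.43) and lies with the untreated arrays in the JINB8-treated ones (7.00 to 7.12), while MIRLET7A2 is low and MIR570HG high in both treated groups.

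In JK-treated HUVEC the precursors of let-7a, miR-31, miR-222 and miR-221 fell relative to other genes, and MIR570HG, MIR32 and MIR15A rose. By limma with Benjamini-Hochberg adjustment over all genes, 75 of 189 members (39.7%) were called, beside 48.6% of all genes. Of these 53 (28%) were higher, beside 26.2% of all genes, and 22 (11.6%) lower, beside 22.4%. The groups did not overlap for 71 of the 75, a property held with a call by 47% of all genes. The median member differed by 0.14 log2 units and the median gene by 0.02. The 53 called higher ranged from 0.23 to 2.33 and the 22 called lower from −2.34 to −0.28, and the 114 not called lay between −0.39 and 0.44. The split depends on the scaling: 90 members were called higher and 18 lower after median centring (35.1% and 19.5% of all genes), and 1 higher and 187 lower on the deposited values (0.163% and 99.3% of all genes).

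In JINB8-treated HUVEC the same number of members was called, 75 of 189, beside 49.3% of all genes, with 46 higher (26% of all genes) and 29 lower (23.3%). The groups did not overlap for 70 of them, beside 47.8% of all genes. The median member differed by 0.05 log2 units and the median gene by 0.02. Those called ranged from 0.22 to 2.59 and from −2.36 to −0.25, and the 114 not called lay between −0.39 and 0.63. Median centring called 90 higher and 22 lower (38.1% and 18.7% of all genes), and the deposited values 1 higher and 187 lower (0.185% and 99.1% of all genes). Both comparisons share the 3 untreated arrays, so the values below are set side by side and their likeness is not a result.

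Among the members that fell, MIRLET7A2 moved the most. This locus makes let-7a, a differentiation-linked microRNA that represses LIN28 and RAS family transcripts. On the quantile scale its 3 untreated arrays read 6.75, 6.64 and 6.77 log2 units, the JK-treated arrays 4.73, 4.38 and 4.03, and the JINB8-treated arrays 4.48, 4.40 and 4.21. Every treated array lay below every untreated one. The difference was −2.34 ± 0.15 (SE, adjusted p = 5.16e-07) in JK-treated and −2.36 ± 0.15 (adjusted p = 4.63e-07) in JINB8-treated cells. MIRLET7A2 was above the olfactory yardstick in untreated cells and under it in both treated groups, so the size of the fall is uncertain.

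MIR31 and its host fell together. MIR31HG, the long noncoding host transcript, read 8.15, 8.38 and 8.30 in untreated, 6.61, 6.71 and 6.48 in JK-treated and 7.11, 7.01 and 6.69 in JINB8-treated arrays. MIR31, studied in vascular and lymphatic endothelium, read 7.66, 8.26 and 8.01, then 6.25, 6.34 and 6.51, then 6.39, 6.66 and 6.45. Neither gene's treated arrays overlapped its untreated ones. MIR31HG differed by −1.68 ± 0.12 (SE, adjusted p = 9.54e-07) in JK-treated and −1.34 ± 0.12 (adjusted p = 4.41e-06) in JINB8-treated cells, and MIR31 by −1.61 ± 0.14 (adjusted p = 5.11e-06) and −1.48 ± 0.14 (adjusted p = 9.19e-06).

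MIR222 and MIR221, whose products repress KIT and the cell cycle inhibitor CDKN1B, did not follow each other in both groups. MIR222 read 7.58, 7.89 and 7.43 in untreated, 6.13, 6.24 and 6.37 in JK-treated and 6.59, 6.70 and 6.59 in JINB8-treated arrays, and fell in both, by 1.39 ± 0.12 (SE; 2.62-fold, adjusted p = 3.54e-06) and by 1.01 ± 0.12 (2.01-fold, adjusted p = 3.28e-05). MIR221 read 7.08, 7.19 and 7.10 in untreated, 6.06, 5.73 and 6.43 in JK-treated and 7.00, 7.12 and 7.10 in JINB8-treated arrays. Its JK-treated arrays lay below all others, and its JINB8-treated arrays overlapped the untreated ones. MIR221 fell by 1.05 ± 0.14 (SE; 2.07-fold, adjusted p = 0.000118) in JK-treated cells and differed by −0.05 ± 0.14 (adjusted p = 0.794) in JINB8-treated cells.

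2 further members were among the lowest. MIR217, whose product represses SIRT1 in ageing endothelial cells, read 5.26, 5.15 and 4.58 in untreated, 4.14, 3.88 and 4.04 in JK-treated and 3.99, 4.02 and 3.75 in JINB8-treated arrays, a difference of −0.98 ± 0.16 (SE, adjusted p = 0.000402) and −1.08 ± 0.16 (adjusted p = 0.000189). MIR181B2, a source of miR-181b, which dampens NF-kappa-B signalling in endothelium, read 5.69, 5.94 and 5.22, then 4.78, 4.59 and 4.61, then 4.87, 4.69 and 5.03, a difference of −0.96 ± 0.16 (SE, adjusted p = 0.000502) and −0.75 ± 0.16 (adjusted p = 0.00231). For both genes the treated arrays lay below the untreated ones, with the third untreated array the lowest of its group. MIR217 was under the yardstick in every HUVEC group, and MIR181B2 in both treated ones.

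Among the members that rose, MIR570HG, the host transcript of MIR570, was highest. Its quantile-scaled values were 4.34, 4.66 and 4.47 in untreated, 6.57, 6.76 and 7.13 in JK-treated and 7.33, 7.05 and 6.87 in JINB8-treated arrays. The treated arrays were all above the untreated ones. The difference was 2.33 ± 0.15 (SE, adjusted p = 6.84e-07) and 2.59 ± 0.15 (adjusted p = 3.15e-07), from an untreated level under the yardstick. MIR570HG was the one member also called higher on the deposited values, by 0.48 (adjusted p = 0.0118) in JK-treated and 0.72 (adjusted p = 0.000763) in JINB8-treated cells. It was bright in exosome RNA too, at 7.04 to 7.10 in JK and 6.97 to 7.31 in JINB8 exosome RNA on the deposited scale, where treated HUVEC read 6.02 to 6.75 and untreated HUVEC 5.49 to 6.00.

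MIR32, which shares the seed of miR-25 and miR-92a, read 5.31, 5.23 and 5.07 in untreated, 6.87, 6.75 and 7.00 in JK-treated and 7.24, 7.38 and 7.16 in JINB8-treated arrays, with no overlap between treated and untreated. It rose by 1.67 ± 0.10 (SE, adjusted p = 3.17e-07) and 2.06 ± 0.10 (adjusted p = 6.7e-08), while on the deposited values its differences were −0.19 and 0.17. MIR15A, whose product represses BCL2, read 4.82, 4.54 and 4.52, then 6.10, 6.19 and 6.02, then 6.27, 5.92 and 5.61. Its treated arrays also lay above the untreated ones, by 1.47 ± 0.15 (SE, adjusted p = 1.41e-05) and 1.31 ± 0.15 (adjusted p = 3.12e-05), and on the deposited values MIR15A was lower, by −0.43 and −0.65. Both precursors were under the yardstick in untreated cells and above it in both treated groups.

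Smaller rises on the quantile scale reversed on the deposited values. MIR154, one of the imprinted precursors of chromosome 14, rose by 1.03 ± 0.09 (SE) and 1.05 ± 0.09 and was −0.85 and −0.87 as deposited. MIR106B, a relative of the MIR17 cluster inside MCM7, and MIR26B, inside CTDSP1, rose by 0.96 ± 0.11 and 0.91 ± 0.10 in JK-treated cells and were −0.95 and −0.92 as deposited. In these 3 genes the treated arrays did not overlap the untreated ones on the quantile scale. MIR154 and MIR106B were above the yardstick in JK-treated cells only, and MIR26B in no HUVEC group.

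MIR30C2, of the miR-30 family that targets the Notch ligand DLL4, and MIR3667HG, a host transcript, were among the highest in JINB8-treated cells. MIR30C2 read 5.52, 5.68 and 5.88 in untreated, 6.62, 6.14 and 6.58 in JK-treated and 7.16, 7.13 and 6.86 in JINB8-treated arrays, rising by 0.76 ± 0.14 (SE, adjusted p = 0.00108) and 1.36 ± 0.14 (adjusted p = 1.68e-05). MIR3667HG read 5.57, 5.53 and 5.84, then 6.52, 6.41 and 6.12, then 6.85, 6.65 and 6.66, rising by 0.70 ± 0.12 and 1.07 ± 0.12 (adjusted p = 0.000595 and 2.83e-05). For both the 3 groups were ordered without overlap; as deposited, MIR30C2 was −0.48 in JINB8-treated and MIR3667HG −1.13 and −0.79.

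**Figure D2:**
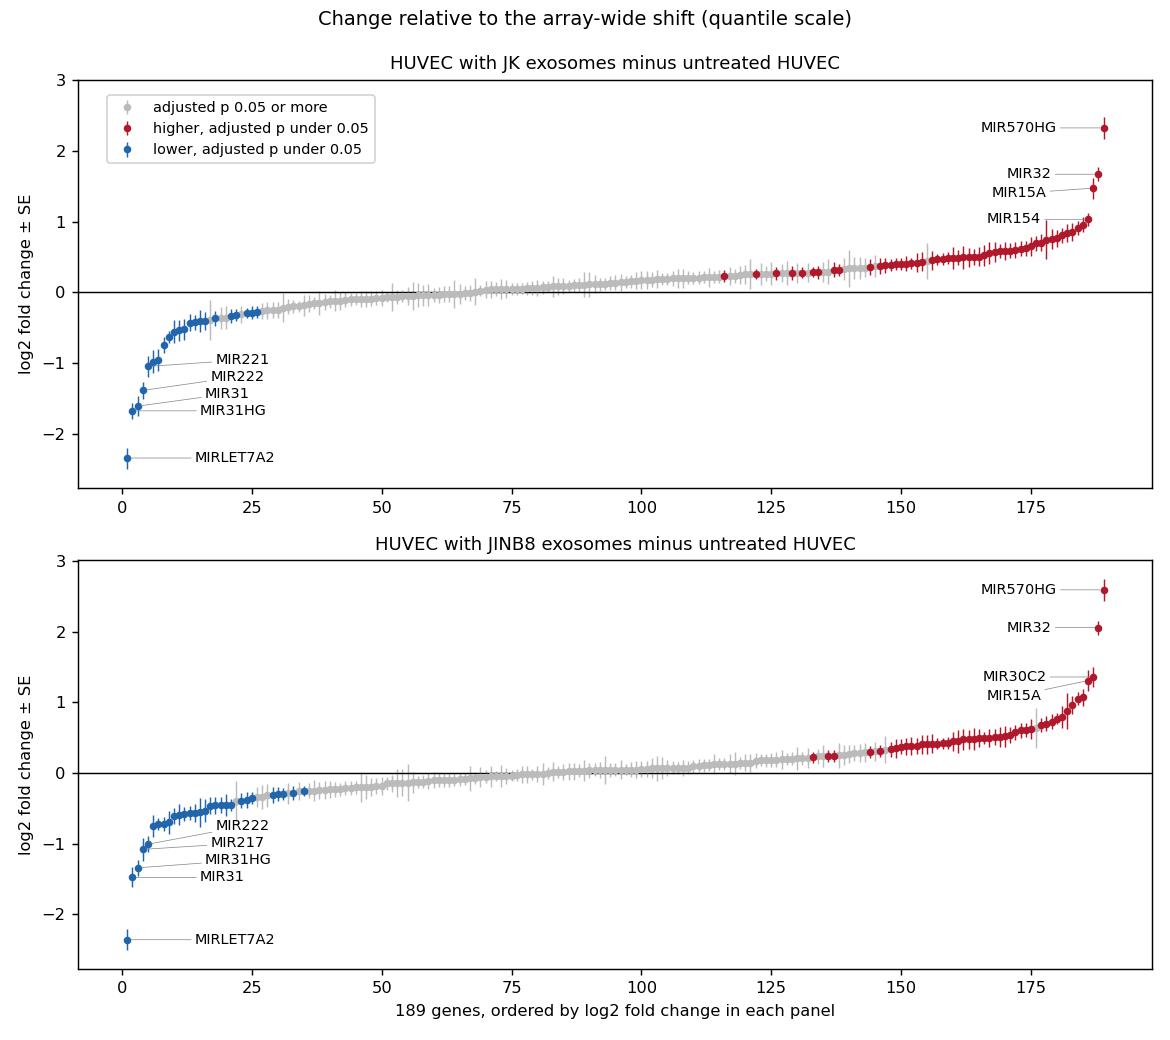
Log2 fold change from untreated HUVEC, with its SE, of all 189 members on the quantile scale, ordered from lowest to highest in each panel (x axis, position in that order), for JK-treated cells above and JINB8-treated cells below. Red and blue points passed the adjusted threshold; both panels share the untreated arrays, and MIRLET7A2 is lowest (−2.34 and −2.36) and MIR570HG highest (2.33 and 2.59) in both.

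The gene lists fixed for this tissue can be read the same way. Of 16 HG hosts, 7 rose and 1 fell in JK-treated cells, and 5 rose and 2 fell in JINB8-treated cells, on the quantile scale that called 26.2% of all genes higher and 22.4% lower in the former and 26% and 23.3% in the latter. Beside those above, MIR503HG rose by 0.50 and 0.38, MIR99AHG by 0.49 and 0.45 and MIR1915HG by 0.45 and 0.51; MIR17HG (0.32) and MIR7-3HG (0.29) were called only in the JK comparison, and MIR4697HG (−0.39) only in the JINB8 one. As deposited, all 5 of those rising hosts were lower than in untreated cells. MIR17HG, MIR7-3HG and MIR4697HG were under the olfactory yardstick in every HUVEC group, and MIR99AHG and MIR1915HG in untreated cells. Several of these calls did not hold when 1 array was left out. In the JK comparison MIR99AHG was lost without JK-treated replicate 1 (adjusted p = 0.103) or 2 (0.0942) or untreated replicate 2 (0.0533) or 3 (0.0875), and MIR17HG without JK-treated replicate 1 (0.0968) or 3 (0.0753) or untreated replicate 3 (0.109). MIR7-3HG was lost there without JK-treated replicate 1 (0.0551) or 2 (0.0681) or untreated replicate 1 (0.0743), and MIR1915HG without JK-treated replicate 3 (0.0639) or untreated replicate 3 (0.0512). In the JINB8 comparison MIR99AHG was lost without JINB8-treated replicate 2 (0.103) or 3 (0.13) or any untreated array (0.0506 to 0.121), and MIR503HG without JINB8-treated replicate 3 (0.0715) or untreated replicate 1 (0.0696).

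Of 13 endothelial precursors read, of 14 listed, MIR10A rose in both comparisons, by 0.62 and 0.60, though it was −0.62 and −0.60 as deposited. MIR10A and MIR10B were under the yardstick in all 3 groups. MIR31, MIR222 and MIR10B fell in both. MIR221 and MIR218-1 (−0.54) passed the test in the JK comparison and MIR132 (−0.38) in the JINB8 one. MIR10B differed by −0.29 and −0.25, was 0.57 and 0.63 after median centring, and was lost in the JINB8 comparison without JINB8-treated replicate 1 (adjusted p = 0.055). MIR132 was lost there without JINB8-treated replicate 2 (0.059) or untreated replicate 2 (0.0552) or 3 (0.0644). In the JK comparison MIR132 differed by −0.25 and passed without untreated replicate 1 (adjusted p = 0.0072). Of 9 precursors of T cells and other blood cells read, of 11 listed, none rose. In JK-treated cells 3 fell (MIR181B2, MIR150 and MIR21) and in JINB8-treated cells 5 (those 3, MIR181A1 and MIR146A). Beside both lists, 26.2% of all genes were higher and 22.4% lower in JK-treated cells, and 26% and 23.3% in JINB8-treated cells. MIR181A1 and MIR146A were under the yardstick in all 3 groups. MIR181A1 (−0.56) was lost without JINB8-treated replicate 1 or 3 or untreated replicate 1 or 2 (adjusted p = 0.114 to 0.167), and MIR146A (−0.31) without JINB8-treated replicate 1 or 3 or any untreated array (0.0675 to 0.142). MIR150, a precursor of mature lymphocytes, differed by −0.43 ± 0.10 (SE) and −0.57 ± 0.10.

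MIR21 was called lower on the quantile scale with small differences. Its arrays read 9.30, 9.78 and 9.29 in untreated, 8.81, 9.16 and 9.19 in JK-treated and 8.98, 8.96 and 8.67 in JINB8-treated cells; the treated arrays lay just below the untreated ones. The difference was −0.41 ± 0.15 (SE, adjusted p = 0.043) and −0.59 ± 0.15 (adjusted p = 0.00704). In the JK comparison the call was lost without JK-treated replicate 1 (adjusted p = 0.165) or 2 (0.0552), or untreated replicate 2 (0.172), and median centring gave −0.08 and −0.20 with no call in either comparison.

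The genes that process microRNAs were read beside the precursors. Of 32 names listed 31 were matched, GW182 being an older name of TNRC6A. In JK-treated cells 14 rose and 2 fell, with a median difference of 0.20 log2 units, and in JINB8-treated cells 16 rose and 3 fell, with a median of 0.23, beside 0.02 over all genes in both. These counts are on the quantile scale, where 26.2% of all genes were higher and 22.4% lower in JK-treated and 26% and 23.3% in JINB8-treated cells; as deposited, 99.3% and 99.1% of all genes were lower. HNRNPA1, an RNA-binding protein that remodels some hairpins, rose by 1.13 and 1.18. TUT4, which uridylates let-7 precursors, rose by 0.92 and 0.93, and the DROSHA cofactor DDX5 by 0.83 and 0.75. AGO2, the slicing Argonaute, fell by 0.45 and 0.46. DICER1, XPO5 and DGCR8 were not called in either comparison.

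The direct comparison of the treated groups asks what changes when the exosomes come from CD47-deficient cells. No member passed the adjusted threshold, and neither did any of the 18417 genes (0%) by limma; at an unadjusted p under 0.05 there were 19 members (10.1%), 7 higher and 12 lower in JINB8-treated cells, beside 9.11% of all genes (4.46% higher and 4.65% lower). The median member differed by −0.05 and the median gene by −0.02 log2 units, and the members ranged from −0.50 to 1.01.

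MIR221 stood at the head of all genes in this comparison. Its deposited values were 5.47, 5.16 and 5.84 in JK-treated and 6.42, 6.54 and 6.54 in JINB8-treated arrays, so that the groups did not overlap. The difference was 1.01 ± 0.14 (SE), 2.02-fold, with the smallest unadjusted p of 18417 genes (6.93e-06) and an adjusted p of 0.0644. By brightness it ranked 6387th of 18417 genes in untreated, 9667th in JK-treated and 6529th in JINB8-treated cells. The adjusted p was 0.0606 after quantile normalization, 0.0442 after median centring (which called 0.0434% of all genes higher), 0.0398 without the dimmest 40% of genes, 0.0181 with a variance trend and robust fitting and 0.00217 with all 15 arrays in the fit. Leaving out 1 array gave 0.00308 without JK-treated replicate 3 and between 0.0789 and 0.452 without any other, with differences of 0.85 to 1.19.

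The neighbouring MIR222 read 5.55, 5.69 and 5.76 in JK-treated and 5.98, 6.08 and 6.01 in JINB8-treated arrays. The groups did not overlap, and the difference of 0.36 ± 0.12 (SE) did not pass (adjusted p = 0.387). MIR30C2 read 6.09, 5.59 and 5.99 against 6.58, 6.54 and 6.29 (0.59 ± 0.14, adjusted p = 0.203), and MIR32 6.35, 6.21 and 6.42 against 6.67, 6.81 and 6.60 (0.37 ± 0.10, adjusted p = 0.264), again without overlap. On the low side MIR99A read 5.59, 5.99 and 5.53 against 5.10, 5.08 and 5.44 (−0.50 ± 0.14, adjusted p = 0.287) and MIR331 4.53, 4.47 and 4.18 against 3.97, 3.91 and 4.16 (−0.38 ± 0.12, adjusted p = 0.347). The arrays of MIR186 (−0.48 ± 0.19) and MIRLET7I (−0.35 ± 0.14) overlapped between the groups. No call was made for any of these, and none of the processing genes was called.

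**Figure D3:**
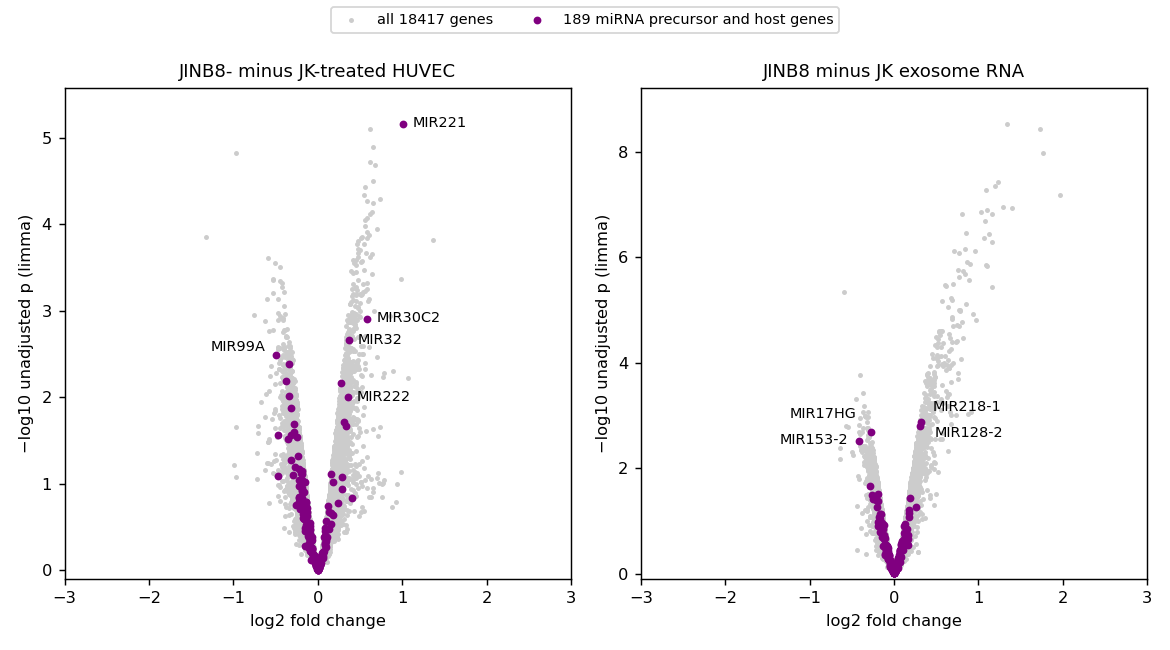
Log2 fold change (x axis) against −log10 of the unadjusted limma p (y axis, on its own scale in each panel) for all genes in grey and the 189 members in purple, with JINB8- minus JK-treated HUVEC on the left and JINB8 minus JK exosome RNA on the right. MIR221, at 1.01, is the highest point on the left, and on the right the members stay within −0.42 and 0.32.

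Exosome RNA of JINB8 and JK cells was compared next. None of the 189 members passed the adjusted threshold by limma, where 125 genes (0.679%) did, 123 of them higher (0.668%) and 2 lower (0.0109%) in JINB8 exosome RNA. At an unadjusted p under 0.05 there were 11 members (5.82%), 3 higher and 8 lower, beside 8.06% of all genes (5.21% higher and 2.85% lower). The members ranged from −0.42 to 0.32 log2 units, with a median of −0.00 against 0.00 for all genes.

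The members with the lowest p were small differences between groups of close arrays. MIR218-1, from the SLIT2 gene, read 5.61, 5.50 and 5.41 in JK and 5.86, 5.82 and 5.81 in JINB8 exosome RNA (0.32 ± 0.08, SE, adjusted p = 0.113). MIR128-2, a precursor best known from neurons, read 4.51, 4.46 and 4.39 against 4.68, 4.80 and 4.80 (0.31 ± 0.08, adjusted p = 0.129). In both genes the groups did not overlap. MIR17HG, the primary transcript of the MIR17 to MIR92A1 cluster, read 3.77, 3.82 and 3.77 against 3.53, 3.47 and 3.53 (−0.28 ± 0.07, adjusted p = 0.151), and MIR153-2 7.55, 7.14 and 7.17 against 6.99, 6.91 and 6.72 (−0.42 ± 0.11, adjusted p = 0.179), likewise without overlap. MIR21 (−0.29 ± 0.11), MIR103A1 (−0.26) and MIR3667HG (0.18 ± 0.08) were smaller or less even. MIR221 read 4.06 to 4.32 in JK and 3.88 to 4.14 in JINB8 exosome RNA, and MIR222 3.79 to 4.01 and 3.72 to 3.88. MIR221 differed by −0.20 and MIR222 by −0.15 without a call, and both lay under the olfactory median of 5.51 and 5.45. Of the processing genes 1 was called: YBX1, an RNA-binding protein that sorts small RNAs into vesicles, was higher in JINB8 exosome RNA by 0.72 ± 0.08 (SE, adjusted p = 0.000665).

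Exosome RNA was then set against the 6 arrays of exosome-treated HUVEC, as the medians of all probesets stand on the same level. Other parts of the scale do not. The olfactory receptor median was 5.51 and 5.45 in JK and JINB8 exosome RNA, against 3.32 and 3.44 in JK- and JINB8-treated HUVEC. The median gene stood at 5.20 in both exosome groups and at 5.64 and 5.58 in treated HUVEC. The part of this shift in the calls was not tested. This comparison crosses 2 kinds of material, T cell vesicles and endothelial cells, and in bulk RNA fewer cells or vesicles with a transcript and fewer copies in each cannot be told apart. By limma 153 of 189 members (81%) were called, beside 94.9% of all genes: 120 higher in exosome RNA (63.5%, beside 45.3% of all genes) and 33 lower (17.5%, beside 49.7%). The groups did not overlap for 129 of them, beside 88.4% of all genes. The median member was 0.36 log2 units higher and the median gene −0.13. The split moved with scaling, to 102 higher and 51 lower after quantile normalization (51.6% and 41.1% of all genes) and 161 and 21 after median centring (51.8% and 44.2%), and the medians became 0.25 for members and 0.23 for all genes under the former.

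MIR153-2, a precursor known from brain, had the largest rise of the members in exosome RNA over treated HUVEC. Its arrays read 7.55, 7.14 and 7.17 in JK and 6.99, 6.91 and 6.72 in JINB8 exosome RNA, against 2.99, 3.14 and 3.25 in JK-treated and 3.11, 3.12 and 3.06 in JINB8-treated HUVEC. The difference was 3.97 ± 0.08 (SE, adjusted p = 1.07e-17), from a HUVEC level under the yardstick, and its rank of brightness moved from 16669th in HUVEC to 557th of 18417 in exosome RNA. In untreated HUVEC it read 5.41 to 5.69 on that group's own higher level.

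The other members highest in exosome RNA were MIR192 (2.43 ± 0.07, SE), MIR365A (2.37 ± 0.06), MIR206 (2.22 ± 0.07), MIR646HG (2.10 ± 0.08) and MIR150 (2.09 ± 0.06, 4.26-fold). MIR192 belongs to liver and gut, MIR206 to skeletal muscle and MIR150 to lymphocytes. MIR192 read 5.97 to 6.25 in JK and 6.18 to 6.40 in JINB8 exosome RNA and 3.64 to 3.87 in treated HUVEC, and MIR150 6.91 to 6.99, 6.80 to 7.08 and 4.70 to 5.08. MIR206 read 5.16 to 5.47 in exosome RNA and 2.88 to 3.31 in treated HUVEC. None of these ranges overlapped. MIR150 and MIR153-2 were above the olfactory yardstick in exosome RNA, and MIR192, MIR206, MIR365A and MIR646HG were under it there and in HUVEC. The olfactory receptor median was itself higher in exosome RNA (5.51 and 5.45) than in treated HUVEC (3.32 and 3.44). None of the rises was corrected for that shift.

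MIR181B1, MIR21 and MIR31HG were lowest in exosome RNA relative to treated HUVEC. MIR181B1 read 8.78, 8.61 and 7.70 in JK-treated and 7.54, 7.78 and 8.35 in JINB8-treated HUVEC, against 4.81 to 5.29 in exosome RNA (−3.11 ± 0.16, SE, adjusted p = 9.54e-12). MIR21 read 8.18 to 8.72 in treated HUVEC, 5.60 to 6.03 in JK and 5.45 to 5.70 in JINB8 exosome RNA (−2.79 ± 0.09, adjusted p = 9.39e-15). MIR31HG read 5.88 to 6.53 against 3.32 to 3.54 (−2.79 ± 0.08, adjusted p = 9.58e-16). In all 3 the 6 exosome arrays lay below the 6 cell arrays and under the yardstick of exosome RNA. MIR222 (−1.99 ± 0.06), MIR221 (−1.90 ± 0.09) and MIR99AHG (−1.87 ± 0.11) followed.

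The brightest members of exosome RNA were MIR326 at rank 10 of 18417 genes, MIR139 at 38, MIR211 at 115, MIR339 at 122, MIR197 at 157 and MIR147A at 177. MIR326 read 9.58 to 9.82 in exosome RNA and 8.49 to 8.76 in treated HUVEC, a difference of 1.12. Of the lists, the HG hosts had 9 higher and 5 lower, the endothelial precursors 7 and 5, and the T cell and blood precursors 6 and 2, beside 45.3% of all genes higher and 49.7% lower. Among the processing genes 2 were higher, LIN28A (1.50) and LIN28B (0.82), and 29 lower, with a median of −2.87, led by DDX5 (−6.09), DDX17 (−5.37) and CNOT1 (−4.62). All 12 T cell markers were called higher (median 1.42) and 11 of 12 endothelial markers lower. The olfactory receptor median was also higher, at 5.51 and 5.45 in exosome RNA against 3.32 and 3.44 in treated HUVEC. Of 6 monocyte markers 5 were higher too (median 1.00), and of 9 mural and fibroblast markers 6 were higher and 2 lower (median 0.91). Their part in the precursors' differences was not tested. For 8 named members the direction reversed after quantile normalization (MIR10A, MIR130A, MIR132, MIR142, MIR181A1, MIR22HG, MIR503HG and MIRLET7BHG).

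**Figure D4:**
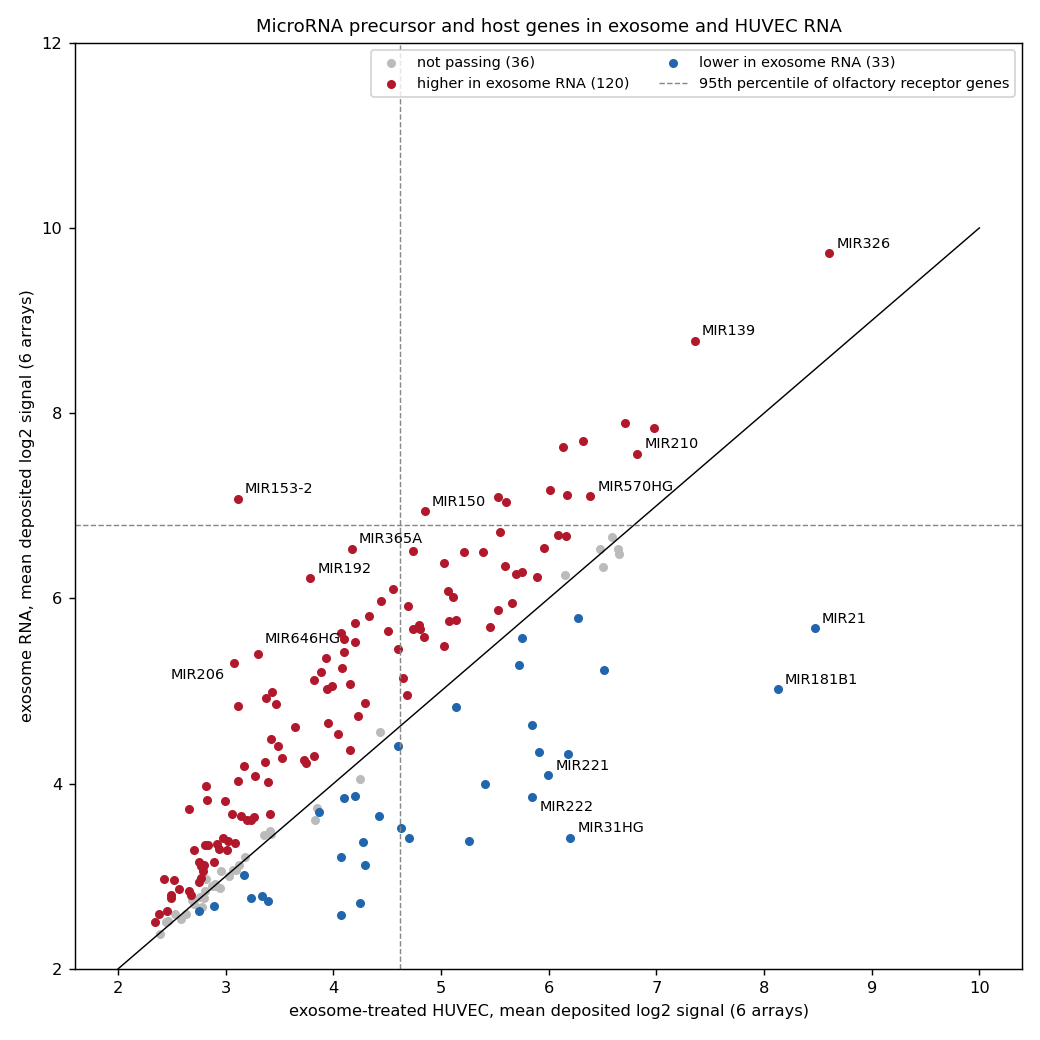
Mean deposited log2 signal of each of the 189 members on the 6 exosome-treated HUVEC arrays (x axis) and the 6 exosome RNA arrays (y axis); the solid line marks equal values, the dashed lines the olfactory yardstick, and colours the direction of calls. MIR153-2 (3.97 higher) lies far above the line and MIR181B1 (−3.11) and MIR21 (−2.79) far below it.

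Precursors that share a seed did not always share a direction. Families and clusters in the following sentences were picked as examples after their values were seen. Of 47 groups with a common seed, holding 94 loci, 3 had members called in opposite directions in JK-treated, 2 in JINB8-treated cells and 12 between exosome RNA and treated HUVEC. Groups with every locus called in the same direction numbered 3, 3 and 18. Of all genes taken singly, 48.6% were called in the JK comparison, 49.3% in the JINB8 one and 94.9% between exosome RNA and treated HUVEC. No rate for groups was computed. A locus can enter by the seeds of both its strands, and in treated cells every group with opposite calls was made up of let-7 loci. Among the 10 loci with the let-7 seed, MIRLET7A2 (−2.34) and MIRLET7A1 (−0.37) fell in JK-treated cells, and MIRLET7F1 (0.74), MIRLET7E (0.58) and MIRLET7G (0.47) rose. In JINB8-treated cells MIRLET7A2 (−2.36) fell and MIRLET7G (0.77), MIRLET7E (0.57) and MIRLET7D (0.40) rose. In the AUUGCAC family MIR32 rose by 1.67, MIR25 by 0.52, and MIR92A2 was −0.19 without a call. In the AGCAGCA family MIR15A rose by 1.47, MIR195 by 0.50 and MIR16-1 by 0.38 in JK-treated cells, and MIR16-1 was 0.06 in JINB8-treated cells without a call. These rises are on the quantile scale. As deposited, MIR570HG was the 1 member called higher in either treated group. MIRLET7A1, MIRLET7E, MIRLET7F1, MIR16-1 and MIR92A2 were under the olfactory yardstick in every HUVEC group, and MIR195 in untreated cells.

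Loci that give the very same mature strand were counted in the same way. Of 20 such groups, with 36 loci, 0 had opposite calls in either comparison with untreated cells and 4 had them between exosome RNA and treated HUVEC. Every locus was called in the same direction in 3 groups in JK-treated cells, 2 in JINB8-treated cells and 12 between exosome RNA and treated HUVEC. Beside these counts, 48.6%, 49.3% and 94.9% of all genes were called in the 3 comparisons, and no rate for groups was computed. The next values are from exosome RNA against treated HUVEC. For miR-181b, MIR181B1 was −3.11 and MIR181B2 1.32, and for miR-30c MIR30C2 was −1.87 and MIR30C1 0.91. All of these loci were under the olfactory yardstick in exosome RNA, and MIR181B2 and MIR30C1 also in treated HUVEC. The olfactory receptor median was itself higher in exosome RNA (5.51 and 5.45) than in treated HUVEC (3.32 and 3.44). The pairs printed above differed likewise: MIR192 was 2.43 and MIR215 −0.05, and MIR206 was 2.22 and MIR1-1 0.06, so the values belong to the loci and cannot be added into an amount of a mature microRNA.

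Neighbouring hairpins were compared as 26 clusters of loci within 10 kb, 65 loci in all. In JK-treated cells 2 clusters had every member called higher, MIR15A with MIR16-1 and MIR25 with MIR106B, 1 had every member lower, MIR221 with MIR222, 3 held opposite calls and 13 held no call. In JINB8-treated cells these numbers were 1, 1, 2 and 10. Only loci with a hairpin entry were placed in clusters. MIR93, paired with MCM7 like MIR25 and MIR106B, had none, and it differed by −0.006 and 0.019 without a call. Taken singly, 48.6% of all genes were called in the JK and 49.3% in the JINB8 comparison, and no rate for clusters was computed. MIRLET7A2 lies beside MIR100, which differed by −0.15 and −0.20 without a call, and MIR217 beside MIR216A, at −0.04 and −0.34 without a call. MIR16-1, MIR100, MIR217 and MIR216A were under the olfactory yardstick in every HUVEC group. Between exosome RNA and treated HUVEC 7 clusters were all higher, 2 all lower, MIR221 with MIR222 and MIR217 with MIR216A, and 7 held opposite calls, such as MIR132 (−0.44) and MIR212 (1.01). The direction of MIR132 reversed there after quantile normalization, and both MIR132 and MIR212 were under the yardstick of exosome RNA. In that comparison 94.9% of all genes were called.

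Precursors were set beside a listed host or neighbouring gene, as 39 pairs over 32 genes. RefSeq spans place 34 precursors inside the listed gene on its strand and 2 inside a gene of unlisted strand; MIR10A and MIR10B lie outside HOXB4 and HOXD4, and MIR93, paired with MCM7, had no hairpin entry. In JK-treated cells both genes were called in 3 pairs, all in the same direction: MIR218-1 with SLIT2, MIR26A2 with CTDSP2 and MIR330 with EML2. In JINB8-treated cells both were called in 7 pairs, 5 in the same direction. Taken singly, 48.6% of all genes were called in the JK and 49.3% in the JINB8 comparison, and no rate for pairs of genes was computed. Pearson's r of precursor and host differences over the 39 pairs was 0.309 and 0.149, a description across pairs that share arrays and sometimes a host. MIR15A rose while its host DLEU2 was 0.26 ± 0.22 (SE, adjusted p = 0.346) in JK-treated cells, and MIR106B rose while MCM7 was 0.22 (adjusted p = 0.14).

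Between exosome RNA and treated HUVEC both genes were called in 28 pairs, 12 in the same direction and 16 in opposite directions, with r = 0.470. Taken singly, 94.9% of all genes were called there. MIR21 (−2.79) and VMP1 (−5.87) were both lower, as were MIR126 (−0.55) and EGFL7 (−0.73) and MIR15A (−1.41) and DLEU2 (−1.28). MIR326 was 1.12 higher where ARRB1 was −5.47, and MIR106B (1.23) and MIR93 (1.46) were higher where MCM7 was −1.61.

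The brightness of a precursor's probes moved with the base composition of its hairpin. Over 155 hairpins, with a GC content of 28.8 to 73.6% (median 49.1%), Pearson's r with the level was 0.575 in untreated HUVEC, 0.527 in treated HUVEC and 0.675 in exosome RNA (Spearman's rho 0.694). The points share arrays and this is a description across precursors. With the difference between exosome RNA and treated HUVEC r was 0.358, and with the differences of JK- and JINB8-treated from untreated cells −0.08 and −0.10.

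With the hairpins split by GC content into 3 sets of like size, the 52 hairpins of lowest GC (28.8 to 44.8%) had median levels of 3.11 in exosome RNA and 2.97 in treated HUVEC, and 25 of them were called higher and 9 lower in exosome RNA. The middle 51 had 3.86 and 3.37, with 29 higher and 12 lower. The 52 of highest GC (54.0 to 73.6%) had 5.84 and 4.77, with 46 higher and 5 lower. Of all genes, 45.3% were called higher and 49.7% lower in exosome RNA. The median difference between exosome RNA and treated HUVEC was 0.06, 0.27 and 0.91 log2 units from low to high GC. The part of base composition in those calls was not tested.

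**Figure D5:**
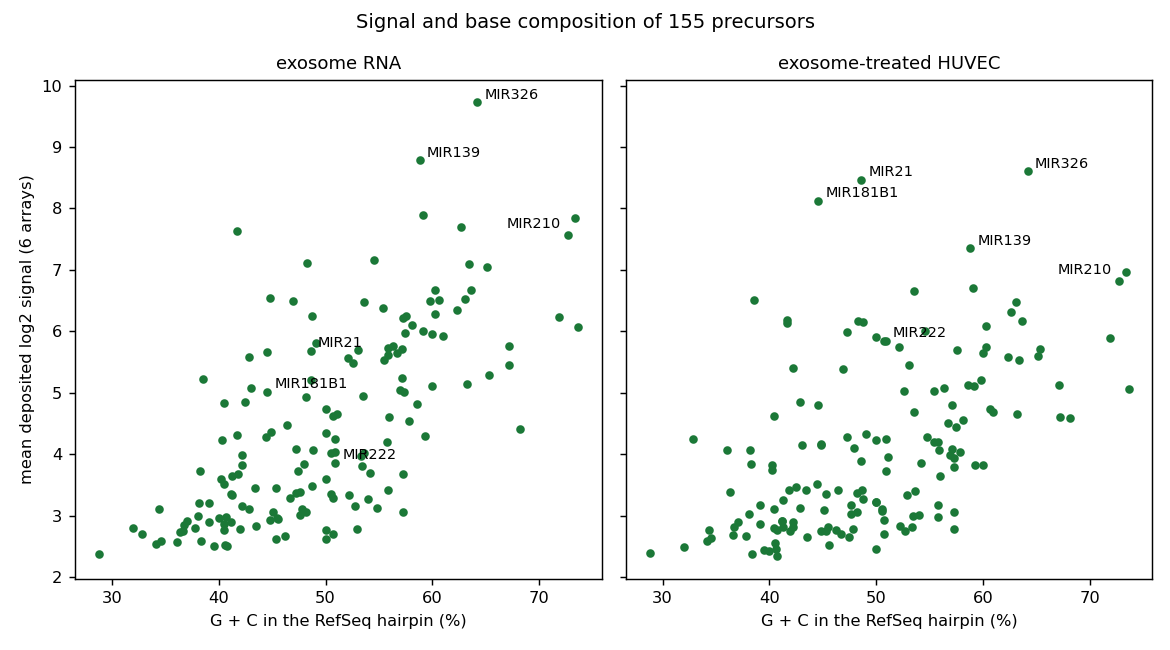
GC content of 155 RefSeq hairpins in percent (x axis) against the mean deposited log2 signal (y axis) in exosome RNA on the left and exosome-treated HUVEC on the right; each point is 1 precursor and a mean of 6 arrays. Signals are higher at higher GC in both panels (Pearson's r = 0.675 and 0.527).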

How the data were processed

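Total RNA of 15 samples was hybridised to Affymetrix whole-transcript arrays. The deposited values are log2 expression values per probeset, made by the authors with Affymetrix Expression Console per the submitters' processing notes; its version, the scaling it applied and the arrays it took together are items not given in the sources used here. Of 33297 probesets 19460 had 1 gene symbol, 1754 several and 12083 none listed; 19429 were matched by Entrez identifier to RefSeq. The probeset with the highest mean over 15 arrays stood for each of 18417 genes. Differences were fitted in limma 3.58.1 (R 4.3.3; lmFit, contrasts.fit, eBayes) with Benjamini-Hochberg adjustment over all genes and a threshold of 0.05. Comparisons with untreated cells used the 9 HUVEC arrays after quantile normalization; JINB8- against JK-treated used the same 9 arrays as deposited, exosome RNA its 6 arrays, and exosome RNA against treated HUVEC those 12 arrays. Named members were, per comparison, the 6 highest and 6 lowest non-overlapping calls, or, with fewer than 5, the 4 highest and 4 lowest at an unadjusted p under 0.05, the 6 brightest, and fixed lists. The members and lists were chosen with earlier results of these data known. The fit was tested on simulated data. Scaling, filter, probeset, variance model, replicate block, array set and left-out arrays were varied.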

Additional observations from a re-analysis of the deposited data

How the results depend on the processing

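Each of the 5 comparisons was recomputed under the alternatives, and the cause of each change below was not tested. On the deposited values 188 members were called in both comparisons with untreated cells, 1 higher and 187 lower. Median centring called 90 higher in each. Without the dimmest 40% of genes 48 members were left in each, and 23 were called, 14 higher and 9 lower, beside 57.4% and 58.5% of all genes left. Between exosome RNA and treated HUVEC 55 were left and 49 called, 41 higher and 8 lower, beside 95.7%. There quantile normalization gave 51 lower and median centring 21. Between JINB8- and JK-treated cells 1 member, MIR221, was called higher by median centring, without the dimmest genes, with trend and robust fitting and with all 15 arrays. Leaving out 1 array gave 63 to 77 calls in JK-treated cells (46 to 55 higher, 16 to 23 lower), 57 to 71 in JINB8-treated cells (33 to 44 higher, 23 to 32 lower), 0 to 1 between treated groups, 0 to 0 between exosome groups and 151 to 156 for exosome RNA against HUVEC (119 to 121 higher, 32 to 36 lower). Over the 10 pairs of groups, deviations of same-numbered samples correlated at −0.453 to 0.347, and in no pair were all over 0.1, so the numbers were taken as names. Between the treated groups they ran from −0.453 to −0.180, while 4 differently numbered pairs reached 0.233 to 0.328; the replicate block gave 76 calls (53 and 23), 71 (43 and 28), 0, 0 and 152 (119 and 33), and of 216 named values changed no call.

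Directions reversed as follows. On the deposited values, JK-treated against untreated: MIR1-1HG −1.69, MIR106B −0.95, MIR10A −0.62, MIR126 −1.38, MIR142 −0.87, MIR154 −0.85, MIR15A −0.43, MIR17HG −1.65, MIR181B1 −1.18, MIR1915HG −1.51, MIR218-2 −1.79, MIR223 −1.68, MIR26B −0.92, MIR296 −1.78, MIR32 −0.19, MIR3667HG −1.13, MIR503 −1.51, MIR503HG −1.19, MIR600HG −1.88, MIR7-3HG −1.67 and MIR99AHG −1.40. JINB8-treated against untreated: MIR1-1HG −1.77, MIR10A −0.60, MIR126 −1.37, MIR142 −0.98, MIR154 −0.87, MIR15A −0.65, MIR17HG −1.77, MIR1915HG −1.49, MIR218-2 −1.96, MIR30C2 −0.48, MIR3667HG −0.79, MIR503 −1.74, MIR503HG −1.35, MIR600HG −1.91, MIR7-3HG −1.79, MIR99AHG −1.50 and MIRLET7BHG −1.63. Under median centring MIR10B (0.57 and 0.63) and MIR146A (0.30 and 0.25) reversed in both and MIR130A (0.32) in JINB8-treated cells. For exosome RNA against HUVEC, quantile normalization reversed MIR10A −0.29, MIR130A −0.052, MIR132 0.057, MIR142 −0.0097, MIR181A1 −0.10, MIR22HG 0.52, MIR503HG 1.29 and MIRLET7BHG 1.52, and median centring MIR503HG 0.25 and MIRLET7BHG 0.31.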
